A study of Mus musculus with 9 samples.

Results

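The genes described here are 41 mouse interferon-stimulated genes, chosen by symbol. They comprise 4 transcription factors, 5 sensors of foreign nucleic acid or their regulators, 23 other antiviral genes and 9 interferon-inducible GTPases. Of these, 38 were measured by a probe set annotated to that symbol alone, among 18194 genes on the array. Isg15 and Gbp4 have only probe sets shared with another symbol and Ifi44 matched no probe set under that symbol alone, so no value is given for these 3. Where a gene had more than 1 such probe set, the brightest by mean log2 intensity was used.

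Thymic cells were profiled on 9 Affymetrix Mouse Genome 430 2.0 arrays, 3 in each of 3 groups: ZsG plus, ZsG minus mTEC and ZsG minus cTEC. ZsG is the fluorescent protein ZsGreen, and cTEC and mTEC are epithelial cells of the thymic cortex and medulla. All groups came from C57BL/6 mice of 8 to 20 weeks that carried a bacterial artificial chromosome transgene with the ZsG reporter at the start codon of Tslp, so the ZsG minus cells are reporter-negative cells of transgenic mice and not cells of wild-type mice. The sources used here do not give the sort gates or say whether the ZsG plus cells came from cortex or medulla. The cell type field of the labels reads keratinocytes for all samples, whereas the titles name thymic epithelium, and the groups follow the titles. The labels do not tie the replicates to separate animals, and the p-values therefore cover the spread of these samples alone, which may be technical.

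Interferons are secreted proteins that bind receptors on the cell surface and act through JAK kinases and STAT transcription factors. Type I interferons (alpha and beta) act on genes through a complex that holds STAT2 and IRF9 and binds the interferon-stimulated response element (ISRE), while interferon gamma acts on genes through the gamma-activated sequence (GAS). The first route is best known for antiviral genes such as the Ifit, Oas and Mx families, and the second for the guanylate-binding proteins and the immunity-related GTPases, which attack the vacuoles of intracellular microbes. Thymic epithelium is known to express many of these genes in mice without infection.

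By summed intensity the epithelial and subset markers followed the titles. Summed intensity over 7 epithelial markers was 210334 to 314880 in ZsG plus, 166430 to 177041 in mTEC and 111215 to 149036 in cTEC. The 9 cTEC markers summed to 289215 to 351638 on the cTEC arrays and to at most 89981 elsewhere, and the 7 measured mTEC markers summed to 52875 to 63478 in ZsG plus, 58041 to 62491 in mTEC and 12289 to 23025 in cTEC. Within the mTEC list Cd86 ran the other way without overlap (geometric mean 2216 in ZsG plus, 2479 in mTEC, 4968 in cTEC), and Tnfrsf11a overlapped in all comparisons. The epithelial marker Krt18 was higher in cTEC than in mTEC without overlap (75991 and 61299). Against the order of the epithelial sums, Cdh1 was lower in ZsG plus than in mTEC without overlap (7398 and 13176). Krt14 also had a lower geometric mean there, with overlap (2043 and 7647). Array medians were 230 to 316 in ZsG plus and 366 to 424 in the other groups, while all arrays had been scaled to the same trimmed mean. The 3' to 5' ratio of the Gapdh probe sets was 6.71 to 10.6 in ZsG plus and 4.55 to 5.97 in the other groups. The bacterial control transcripts PheX and DapX, which mouse RNA does not contain, read at most 341, and 26 of the 38 genes were above that value on all 9 arrays.

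None of the 38 genes passed the threshold in any comparison, which was a limma adjusted p under 0.05 by the Benjamini-Hochberg method over all 18194 genes. Over all genes, 0.22% passed between ZsG plus and mTEC, 1.74% between ZsG plus and cTEC and 0.627% between mTEC and cTEC. At an unadjusted p under 0.05, 1 member (Ifit1) passed between ZsG plus and mTEC, or 2.63% (all genes 13.4%). Between ZsG plus and cTEC 8 passed (Ifit1, Gbp2, Gbp3, Mx1, Ifit3, Irf1, Irgm1 and Ddx58), or 21.1% (all genes 18.7%), and between mTEC and cTEC 3 (Gbp2, Gbp3 and Oasl1), or 7.89% (all genes 12.3%). In the shares of nominal calls the members were therefore near or below the whole array. The differences described from here on are differences in measured values with their standard errors, and they did not pass the adjusted test unless a setting is named.

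The pattern that the genes had most in common was a higher value in cTEC than in mTEC. For 17 of 38 members (44.7%) all 3 mTEC arrays read below all 3 cTEC arrays, against 11.8% of all genes, and for 3 members (7.89%) all 3 mTEC arrays read above, against 16.6% of all genes. The 17 were Irf1, Irf9, Ddx58, Trim25, Mx1, Mx2, Ifit3, Oas1a, Oas2, Rtp4, Parp14, Ifi27, Ifi35, Xaf1, Gbp2, Gbp3 and Gbp7, and the 3 were Gbp6, Oasl1 and Usp18. These counts use the brightest probe set of each gene. Dimmer probe sets of Ddx58, Trim25, Rtp4, Parp14, Ifi27, Ifi35, Gbp6 and Gbp7 overlapped between mTEC and cTEC. The dimmer probe sets of Gbp2 and Xaf1 again read below in mTEC without overlap, as did another of Ddx58. The Xaf1 probe set was in the range of the bacterial controls on all arrays (7.85 to 175.4), so its difference is poorly measured. The Ddx58 probe set was in that range on all mTEC arrays (288.2, 309.3 and 118.0), as was a Gbp2 value of 310.3 in mTEC. The median difference, mTEC minus cTEC, was -0.54 on the log2 scale over the members and 0.09 over all genes, with 27 members below 0 and 11 above. It was -0.70 for the 4 factors, -0.59 for the 5 sensors, -0.54 for the 21 antiviral genes and -0.50 for the 8 GTPases. After quantile normalization the same 17 genes were below without overlap, and after centring each array on its median 15 of them were, without Oas1a and Trim25.

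**Figure D1:**
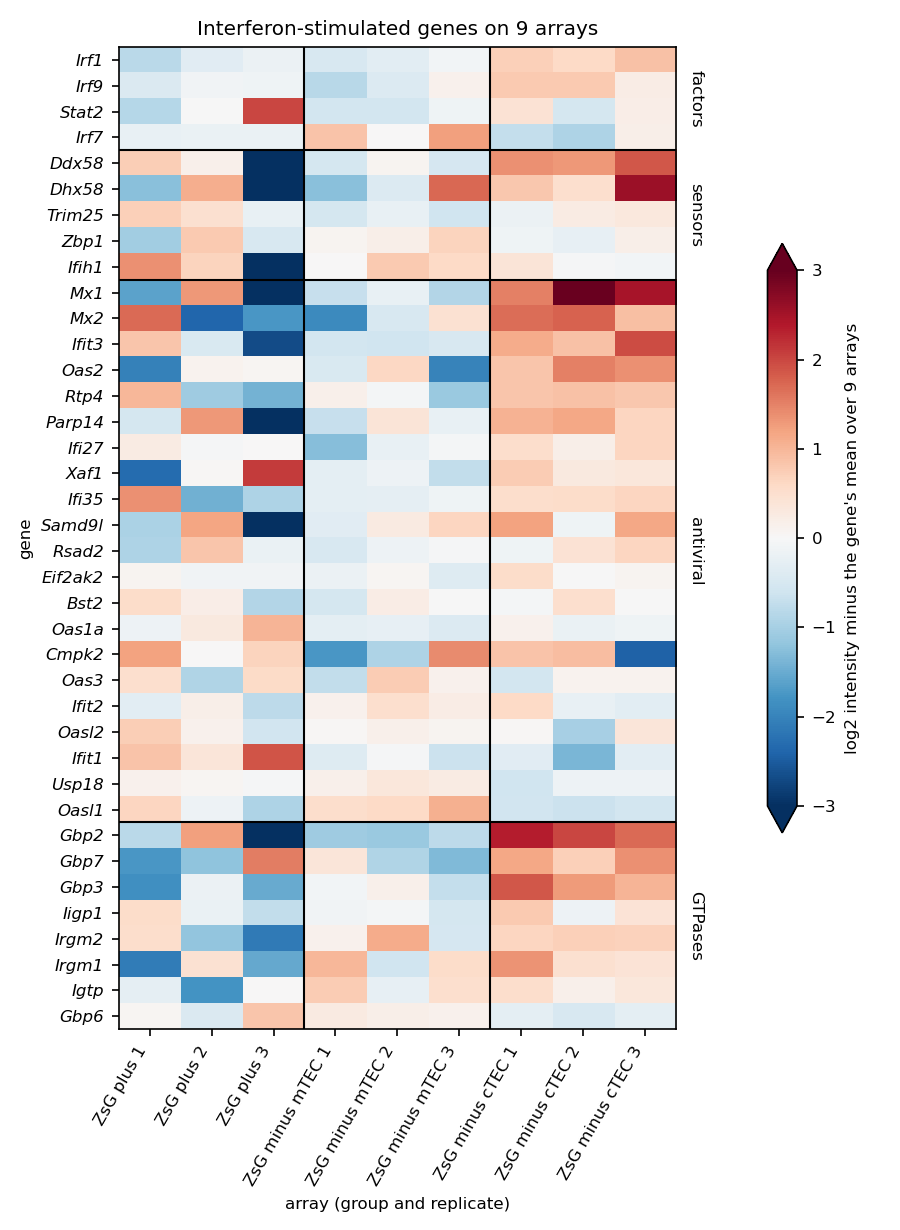
Log2 intensity of the 38 measured genes (rows, ordered by role and then by the mTEC minus cTEC difference) on 9 arrays (columns), each as the difference from that gene's mean over the 9 arrays; colours end at 3 in either direction and larger differences have the end colour. The cTEC columns are red for most rows down to the middle of the antiviral block and for most GTPases, Gbp6 and Oasl1 are blue there, and ZsG plus replicate 3 holds most of the darkest blue cells.

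Other cell types moved with the same contrast. Summed intensity over 11 measured thymocyte markers was 53916 to 71709 in cTEC, 8850 to 15336 in mTEC and 7135 to 11825 in ZsG plus. The 7 measured fibroblast markers summed to 34740 to 53080, 4897 to 7820 and 5105 to 25800 in the same order, and 6 endothelial markers to 2257 to 2669, 1349 to 1868 and 876 to 2082, with Cldn5 and Emcn at or below the bacterial controls on all 9 arrays. For these 3 sums every cTEC array was above every other array. Single genes differed: the fibroblast gene Pdgfrb had its lowest geometric mean in cTEC (287, beside 693 in mTEC and 383 in ZsG plus, with overlap). The thymocyte gene Ptcra overlapped between cTEC and mTEC (191 and 178). The 11 measured markers of dendritic cells and macrophages summed to 15297 to 45253 on cTEC, 40761 to 58654 on mTEC and 33669 to 101632 on ZsG plus arrays. Lyz2, the gene of a lysozyme, carries most of that sum, with a geometric mean of 34685 in mTEC and 13539 in cTEC. Itgax, the gene of CD11c, ran the other way, at 262.2, 149.2 and 20.8 in mTEC and 1792.6, 3254.2 and 463.4 in cTEC. The 7 measured markers of plasmacytoid dendritic cells, known as producers of type I interferon, summed to 22891 to 29499, 15708 to 22168 and 16390 to 29024, and that list holds the member Bst2. Within it Tcf4 was higher in cTEC (geometric mean 10783 in cTEC, 3516 in mTEC), whereas Klk1 ran the other way (668 in cTEC, 4652 in mTEC). The 5 measured B cell markers summed to 825 to 3346, 1219 to 2739 and 1500 to 8578. The part of these other cells in the interferon-stimulated genes was not tested, and in bulk samples such as these fewer cells of a type cannot be told apart from less RNA per cell.

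Between ZsG plus and cTEC, 10 of 38 members (26.3%) were lower in ZsG plus with no overlap between groups (all genes 13.4%), and 2 (5.26%), Ifit1 and Usp18, were higher (all genes 9.9%). The 10 were Gbp2, Gbp3, Igtp, Irgm2, Irf1, Irf9, Ddx58, Ifit3, Mx1 and Oas2. The median difference, ZsG plus minus cTEC, was -0.58 over the members and -0.14 over all genes. The median was -1.59 over 8 GTPases (range -3.06 to 0.51) and -0.37 over 21 antiviral genes (range -4.04 to 1.71). The ranges overlapped, and the difference between these groups of genes was not tested. With genes below the 40th percentile of intensity left out, the median over the members kept was -0.50. Relative to the median of all genes kept this was -0.14, beside -0.45 without the filter, so the shift against the background depended on the dimmer genes. This comparison depended on the scale: after centring on array medians, which moved the median of all genes to 0.40, the median was -0.04 over all members, -1.05 over the GTPases and 0.17 over the antiviral genes. Gbp2, Gbp3 and Irf1 were then the only members below without overlap (7.89%, all genes 7.68%), and 6 (15.8%, all genes 17.1%) were above. Without ZsG plus replicate 3, an alternative chosen after the values were seen, 12 members were below and 5 above without overlap (31.6% and 13.2%, all genes 19.9% and 17.0%).

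Between ZsG plus and mTEC the members showed no shared direction beyond that of the arrays. Ifi27, Ifit1 and Oas1a were higher in ZsG plus without overlap (7.89%, all genes 5.77%) and Irf7 and Usp18 lower (5.26%, all genes 12.3%). For Ifi27 this held for the brighter probe set alone: the other read 2007.7, 1640.1 and 1942.1 in ZsG plus and 2050.5, 5985.4 and 3053.4 in mTEC, which is lower without overlap (-0.85, limma adjusted p = 0.568). The median difference was -0.12 over the members and -0.33 over all genes on the deposited scale, -0.15 and -0.07 after quantile normalization, and 0.42 and 0.21 after centring. All 3 comparisons come from the same 9 arrays, and any pair of them shares 3 arrays, so their values are set side by side and not counted against each other.

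**Figure D2:**
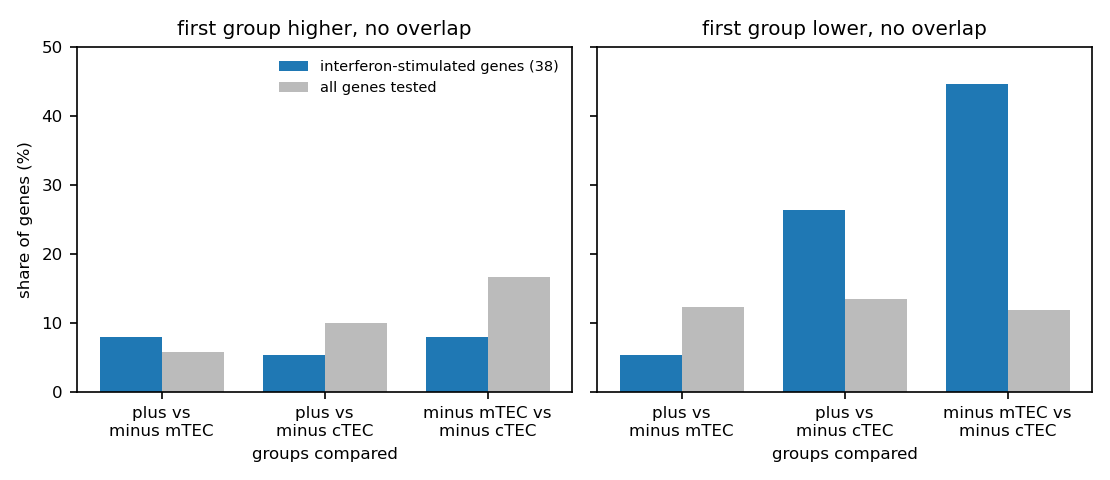
Share of genes (%) whose 3 arrays in the first group named were all above (left) or all below (right) the 3 arrays of the other group, for the 38 measured interferon-stimulated genes (blue) and all 18194 genes tested (grey). The tallest blue bar is 44.7%, for genes lower in mTEC than in cTEC, beside 11.8% for all genes, and the blue bar for genes lower in ZsG plus than in mTEC is 5.26% beside 12.3%.

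The promoters of the genes with the clearest patterns show which of the 2 response elements lie near their starts. Sequences were taken from RefSeq (GRCm38.p6), where 29 of the 41 genes had 1 or more windows, 33 in all. The 250 bases before each start were searched on both strands for an ISRE core, GAAA followed after any 2 bases by a further GAAA (on the other strand TTTC, any 2 bases, TTTC), and for a GAS core, TTCNNNGAA, which is its own reverse complement. Overlapping matches were each counted. An ISRE match lay in 14 of 33 windows (42.4%), against 2.98% of all 32851 windows, and a GAS match in 8 (24.2%), against 7.02%. All 6 GTPase genes with a window (Gbp2, Gbp3, Gbp7, Igtp, Irgm1 and Irgm2) held an ISRE match, and Gbp7, Igtp and Irgm2 also held a GAS match. Of 16 antiviral genes, 7 held an ISRE match and 4 a GAS match, of 4 factors Stat2 held an ISRE match and Irf1 a GAS match, and none of 3 sensors held either.

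The stretches printed here are those of 4 GTPases, of Ifit1 and Ifit3 and of Irf1, because their levels are described in detail and because they place the same letters beside different patterns of expression. All are on the plus strand and end 1 base before the start, except that of Ifit3, which ends 91 bases before it. They lie at chr3:142620553-142620662 for Gbp2, chr3:142559954-142560043 for Gbp3, chr3:142530216-142530335 for Gbp7, chr11:58214877-58214976 for Irgm2, chr19:34640769-34640888 for Ifit1, chr19:34583359-34583438 for Ifit3 and chr11:53769904-53770013 for Irf1. For genes with more than 1 RefSeq start, the window with the most matches is shown. Capitals mark the ISRE and GAS matches, read 5′ to 3′.
Gbp2: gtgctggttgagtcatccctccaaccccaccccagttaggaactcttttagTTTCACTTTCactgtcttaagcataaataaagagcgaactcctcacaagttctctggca
Gbp3: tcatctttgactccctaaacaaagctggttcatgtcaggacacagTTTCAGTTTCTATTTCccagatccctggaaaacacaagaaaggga
Gbp7: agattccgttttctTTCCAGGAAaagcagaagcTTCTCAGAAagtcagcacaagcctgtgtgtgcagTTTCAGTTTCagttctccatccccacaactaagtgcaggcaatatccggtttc
Irgm2: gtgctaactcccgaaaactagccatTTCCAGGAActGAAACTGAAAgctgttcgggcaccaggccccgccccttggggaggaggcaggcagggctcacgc
Ifit1: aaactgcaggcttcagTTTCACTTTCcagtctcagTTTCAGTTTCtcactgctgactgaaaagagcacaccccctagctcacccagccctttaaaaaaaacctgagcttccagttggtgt
Ifit3: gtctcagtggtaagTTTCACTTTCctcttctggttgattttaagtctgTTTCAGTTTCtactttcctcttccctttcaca
Irf1: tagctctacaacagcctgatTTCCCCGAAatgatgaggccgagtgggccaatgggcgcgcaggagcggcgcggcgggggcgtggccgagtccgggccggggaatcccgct

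Gbp2, Ifit1 and Ifit3 share the 10 letters TTTCACTTTC, at 59 to 50 bases before the start of Gbp2, 104 to 95 before that of Ifit1 and 156 to 147 before that of Ifit3. Ifit1 and Ifit3 each hold a second match, TTTCAGTTTC. Among these 3 genes Gbp2 and Ifit3 read highest in cTEC, whereas Ifit1 read highest in ZsG plus, as given in detail with each family. Over the 13 measured members with an ISRE match the median difference between mTEC and cTEC was -0.43 (10 below 0, 3 above), and over the 14 with a window but no match it was -0.46 (9 below, 5 above). A match is a run of letters and not evidence of binding, and a window without one says nothing about the factor.

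Of 6 measured interferon genes, Ifna2, Ifna4 and Ifnb1 read at or below 341, the highest value of the bacterial controls, on all 9 arrays. Ifna1, which encodes an interferon alpha and is named after its values were seen, read 344.2, 882.8 and 1401.4 in ZsG plus, 186.8, 637.4 and 128.0 in mTEC and 44.1, 228.2 and 28.5 in cTEC. All ZsG plus arrays were above all cTEC arrays, by 3.51 ± 0.97 (limma adjusted p = 0.107), and ZsG plus overlapped mTEC. Its only probe set is of the kind that can also bind transcripts of related genes, so that other interferon alpha genes may add to its value. Ifng, the gene of interferon gamma, read 14.2, 39.8 and 8763 in ZsG plus, 311.9, 638.8 and 39.5 in mTEC and 626.2, 276.8 and 900.9 in cTEC. The value of ZsG plus replicate 3 stood far above the others and the groups overlapped.

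The 4 receptor genes read above the bacterial controls, except Ifnar2 on ZsG plus replicate 3 and Ifngr1 on ZsG plus replicate 1. Ifnar1, the first chain of the type I receptor, read 2604, 3485 and 1312 in ZsG plus, 2192, 2749 and 2196 in mTEC and 3422, 3832 and 4211 in cTEC. Ifnar2, the second chain, read 985.3, 506.4 and 53.0 in ZsG plus, 4336, 3035 and 2096 in mTEC and 3893, 5811 and 3572 in cTEC. All ZsG plus arrays were below all others for Ifnar2, by -3.34 ± 0.99 against mTEC (limma adjusted p = 0.207) and by -3.86 ± 0.99 against cTEC (limma adjusted p = 0.0889). A dimmer Ifnar2 probe set, at or below the controls on all ZsG plus arrays, differed by -4.52 against cTEC and passed when all probe sets were tested (limma adjusted p = 0.0352), and the remaining Ifnar2 probe set also had its lowest mean in ZsG plus. Of the interferon gamma receptor, Ifngr1 read 46.3, 664.4 and 2183 in ZsG plus, 990.7, 849.4 and 1223 in mTEC and 2268, 1819.9 and 1402.5 in cTEC. Ifngr2 read 7542, 4119 and 2619.7 in ZsG plus, 5643, 5281 and 4502 in mTEC and 3473, 5480.2 and 4253 in cTEC, with all groups overlapping.

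The list of interferon ligands, receptors and signalling genes had 30 of 33 genes measured, and by the brightest probe set of each gene none passed the adjusted threshold in any comparison. At an unadjusted p under 0.05 there was 1 lower (Ifnar2) between ZsG plus and mTEC, 2 higher and 4 lower between ZsG plus and cTEC, and 2 higher between mTEC and cTEC. These are 3.33%, 20.0% and 6.67% of the list, beside 13.4%, 18.7% and 12.3% of all genes. The list's median difference was -0.14, -0.52 and -0.51 in these comparisons. Its 3 brightest genes were Irf8, a factor of myeloid and plasmacytoid cells, and the kinases Jak1 and Jak2. Jak2, which serves the interferon gamma receptor, read 2791, 3676 and 2678 in ZsG plus, 3454, 6643 and 4681 in mTEC and 12149, 16512 and 5829 in cTEC, and was lower in ZsG plus than in cTEC by -1.80 ± 0.59 (limma adjusted p = 0.151). Jak1, shared by all interferon receptors, read 7007, 9424 and 684.7 in ZsG plus, 8919, 6114 and 6248 in mTEC and 5811, 6987 and 6883 in cTEC, so that ZsG plus replicate 3 alone stood low. Irf8 read 2098, 10038 and 9472 in ZsG plus, 3990.2, 7131 and 6904 in mTEC and 7250.3, 11938 and 6449.8 in cTEC, and its groups overlapped.

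Among the factors, Irf1 had the tightest pattern. Irf1 is an early target of interferon gamma and itself an activator of other interferon-stimulated genes, and its promoter stretch above holds the GAS match TTCCCCGAA at 90 to 82 bases before the start. It read 7269, 10079.8 and 11254 in ZsG plus, 9146, 10118 and 11988 in mTEC and 20695, 19190.2 and 23222 in cTEC. Every cTEC array was above every other array. The difference was -1.16 ± 0.49 for ZsG plus minus cTEC (limma adjusted p = 0.248) and -1.02 ± 0.49 for mTEC minus cTEC (limma adjusted p = 0.455). Over the alternatives the adjusted p of the first ranged from 0.0582 to 0.526, and both kept their sign.

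Irf9 and Stat2 encode parts of the complex that carries the type I signal. Irf9 read 970.0, 1218 and 1186 in ZsG plus, 737.1, 985.6 and 1419.7 in mTEC and 2235, 2233 and 1510.4 in cTEC, with all cTEC arrays above the rest and a difference of -0.96 ± 0.52 for mTEC minus cTEC (limma adjusted p = 0.529). Stat2 read 1156, 2060.3 and 8382 in ZsG plus, 1433, 1426 and 1904 in mTEC and 2847, 1442 and 2398 in cTEC, and the groups overlapped. Irf7, the factor that amplifies type I interferon production, ran the other way. It read 1451, 1482 and 1489 in ZsG plus, 3101, 1713.5 and 4008 in mTEC and 1033, 900.8 and 1918 in cTEC. The mTEC value was higher than the cTEC value by 1.19 ± 0.57 (limma adjusted p = 0.447), with 1 cTEC array inside the mTEC range.

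Among the sensors of viral RNA, Ddx58, which encodes RIG-I, had the largest difference. It read 991.4, 655.6 and 26.1 in ZsG plus, 411.8, 632.3 and 421.0 in mTEC and 1540.5, 1462 and 2159.5 in cTEC. All cTEC arrays were above the rest, and ZsG plus replicate 3 was within the range of the bacterial controls. The difference was -2.72 ± 1.20 for ZsG plus minus cTEC (limma adjusted p = 0.264, and -1.07 without ZsG plus replicate 3) and -1.82 ± 1.20 for mTEC minus cTEC (limma adjusted p = 0.637).

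Dhx58 encodes LGP2, a regulator of the RIG-I family, and read 268.2, 1368 and 46.8 in ZsG plus, 270.0, 484.8 and 2138 in mTEC and 1137, 917.6 and 3841 in cTEC. Its groups overlapped by this probe set, 3 arrays were at or below the bacterial controls and its probe sets disagreed in sign in both comparisons with cTEC. For 1 dimmer Dhx58 probe set, ZsG plus (163.1, 214.4 and 131.4, in the range of the controls) was below all other arrays. The differences were -2.20 against mTEC and -1.82 against cTEC (limma adjusted p = 0.179 and 0.164). Ifih1, which encodes MDA5, read 7979, 4922 and 237.4 in ZsG plus, 3095, 5301 and 4681 in mTEC and 4028, 2993 and 2914 in cTEC, with the mTEC and cTEC ranges overlapping. Zbp1, a sensor of Z-form nucleic acid that can start cell death, read 3851, 13693 and 5710.1 in ZsG plus, 8404.5, 9066 and 12649 in mTEC and 7259, 6763 and 9051 in cTEC. The ubiquitin ligase gene Trim25, which acts on RIG-I, was the brightest sensor gene at 42112, 35993 and 21966 in ZsG plus, 17885, 22041 and 16917 in mTEC and 22822, 30668.5 and 32242 in cTEC. All mTEC arrays were below all cTEC arrays for this probe set, but the 3 probe sets of Trim25 disagreed in sign in all 3 comparisons.

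Ifit1, whose product binds viral RNA that lacks the cap methylation of host mRNA, was the one antiviral gene with its highest values in ZsG plus and non-overlapping groups against both others. It read 48713, 34302 and 98237 in ZsG plus, 20389.8, 26049 and 17166 in mTEC and 21218, 10304 and 21646 in cTEC. The ZsG plus value was 2.62-fold that of mTEC, a log2 difference of 1.39 ± 0.61 (limma adjusted p = 0.367), and 3.26-fold that of cTEC, a log2 difference of 1.71 ± 0.61 (limma adjusted p = 0.18). The second passed when eBayes was run with a trend and robust settings (adjusted p = 0.0432), and over the alternatives its log2 difference ranged from 1.26 to 2.24. Quantile normalization and centring left Ifit1 above both other groups without overlap.

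The related genes Ifit2 and Ifit3 did not share that pattern of values. Ifit3 read 8079, 3300.4 and 702.5 in ZsG plus, 3076.5, 3013 and 3258 in mTEC and 9792, 8347 and 17456 in cTEC, with all cTEC arrays above the rest. Its difference was -2.08 ± 0.85 for ZsG plus minus cTEC (limma adjusted p = 0.231) and -1.85 ± 0.85 for mTEC minus cTEC (limma adjusted p = 0.422). Ifit2 read 1593, 2258.5 and 1165 in ZsG plus, 2189.5, 2821 and 2333 in mTEC and 3002, 1703 and 1596 in cTEC, and all groups overlapped.

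The largest difference of any member was that of Mx1, a GTPase that traps influenza virus and of which C57BL/6 mice are known to carry a disrupted copy. It read 401.0, 3029.8 and 42.1 in ZsG plus, 756.2, 1054 and 672.4 in mTEC and 3517, 9549 and 6847 in cTEC. All cTEC arrays were above all others, and the ZsG plus arrays spread over most of the range below, with ZsG plus replicate 3 within the range of the bacterial controls. The ZsG plus minus cTEC difference was -4.04 ± 1.30 (limma adjusted p = 0.147) and the mTEC minus cTEC difference was -2.91 ± 1.30 (limma adjusted p = 0.407). The second passed when only the 6 mTEC and cTEC arrays were fitted (adjusted p = 0.0397), and the first passed without ZsG plus replicate 2 (-5.56, adjusted p = 0.0268). Without ZsG plus replicate 3 the first was -2.47 (adjusted p = 0.172). Mx2, a relative of Mx1, read 381.3, 22.6 and 35.0 in ZsG plus, 31.0, 84.0 and 160.1 in mTEC and 372.7, 397.1 and 219.0 in cTEC, with 6 arrays at or below the bacterial controls.

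The Oas family, whose enzymes make the 2'-5' oligoadenylates that switch on RNase L, and its relatives pointed in several directions. Oasl1 read 2062, 1187 and 688.4 in ZsG plus, 1874, 1982.5 and 2721 in mTEC and 879.9, 843.0 and 891.0 in cTEC. All mTEC arrays were above all cTEC arrays, by 1.31 ± 0.57 (limma adjusted p = 0.391), and over the alternatives by 1.14 to 1.50. Oas2 read 42.4, 185.5 and 180.4 in ZsG plus, 125.0, 263.5 and 43.1 in mTEC and 304.8, 488.0 and 444.2 in cTEC, with 7 arrays at or below the bacterial controls. Oas1a read 3611, 4918 and 8136 in ZsG plus, 3270.4, 3424 and 3060.2 in mTEC and 4416, 3499 and 3703 in cTEC, so that mTEC was below both other groups without overlap, with a difference of 0.69 ± 0.53 for ZsG plus minus mTEC (limma adjusted p = 0.583). Oasl2, the second brightest antiviral gene, read 25599.9, 16838 and 10286 in ZsG plus, 15783, 17159 and 16343 in mTEC and 15640.1, 7628 and 19796 in cTEC, and Oas3 also overlapped in all comparisons.

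Of the remaining antiviral genes, 5 more read lower in mTEC than in cTEC without overlap by the brightest probe set. Of these only Xaf1 did so for its dimmer probe set too. That probe set read 7.85 to 175.4, in the range of the bacterial controls on all arrays, and adds little to the brighter one. Ifi35 read 11459.5, 11634 and 12849 in mTEC and 20281, 20672 and 21898 in cTEC, while its ZsG plus values of 36593, 5193 and 7428.5 lay on both sides and its probe sets disagreed in sign. Rtp4 read 2632, 631.9 and 492.4 in ZsG plus, 1483, 1264 and 617.6 in mTEC and 2363, 2429.5 and 2326 in cTEC. Parp14, Xaf1 and Ifi27 had mTEC minus cTEC differences of -1.13 ± 0.99, -0.86 ± 0.97 and -0.98 ± 0.54, with limma adjusted p-values of 0.771, 0.841 and 0.543. Usp18, the protease that removes ISG15 and damps type I signalling, had the opposite direction. It read 5783, 5486 and 5148 in ZsG plus, 5839, 6715 and 6256 in mTEC and 3515, 4771 and 4755.5 in cTEC. This put mTEC above ZsG plus and ZsG plus above cTEC without overlap, at differences no larger than 0.54 ± 0.48 (limma adjusted p = 0.777). After centring, ZsG plus and mTEC overlapped, and after quantile normalization ZsG plus and cTEC overlapped. Bst2, Cmpk2, Eif2ak2, Rsad2 and Samd9l overlapped in all 3 comparisons by the probe set used. The dimmer Cmpk2 probe set read 13.1, 161.5 and 79.9 in ZsG plus, all in the range of the bacterial controls. There ZsG plus was lower without overlap, by -3.09 against mTEC and -2.40 against cTEC (limma adjusted p = 0.204 and 0.207). The probe set used had the opposite sign. A dimmer Rsad2 probe set was lower in mTEC than in cTEC without overlap, by -0.84 (limma adjusted p = 0.763).

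**Figure D3:**
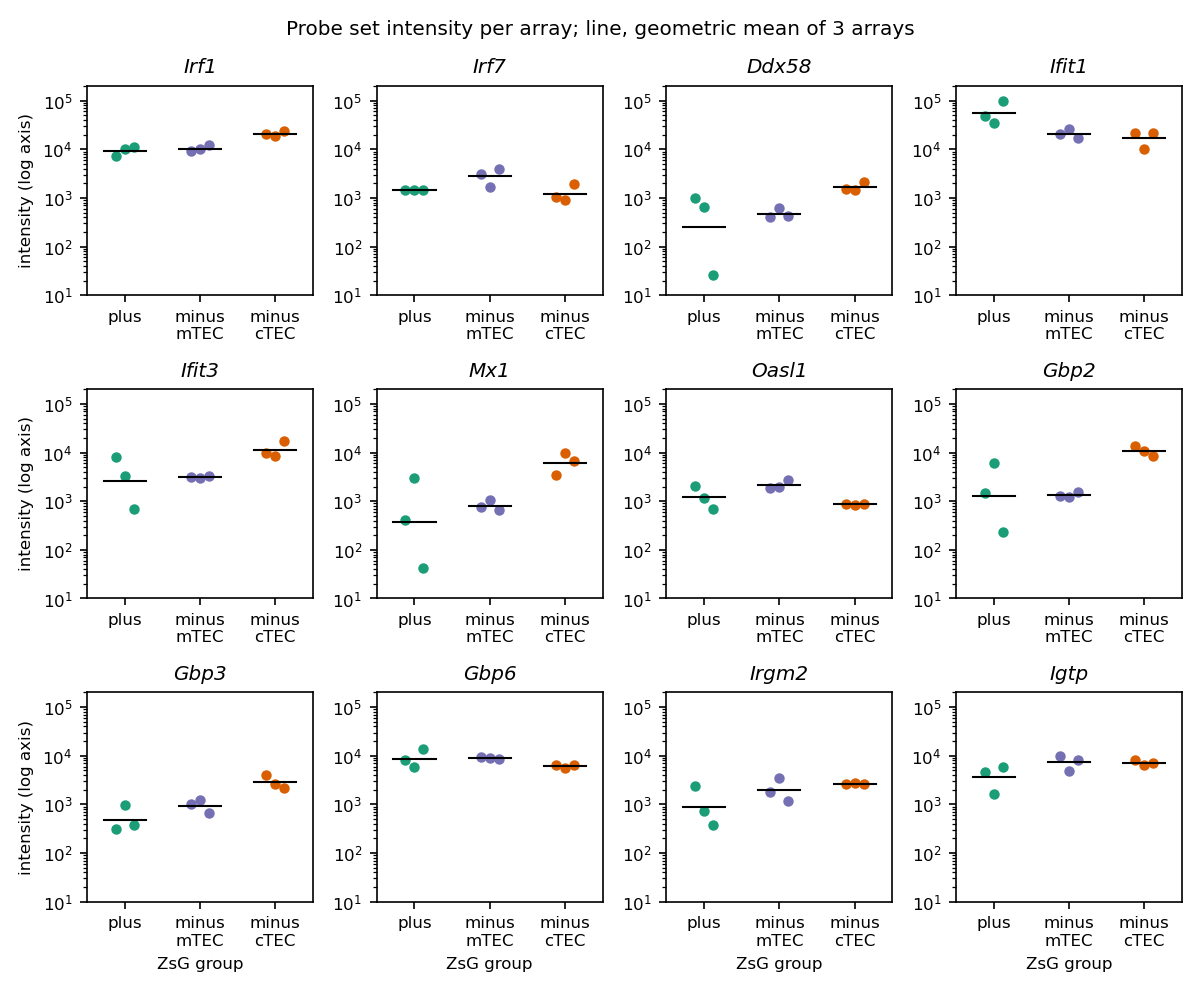
Probe set intensity on each array (points, log axis) for 12 genes in ZsG plus (green), ZsG minus mTEC (purple) and ZsG minus cTEC (orange), with lines at the geometric mean of 3 arrays. Ifit1 is highest in ZsG plus, Irf1, Ddx58, Ifit3, Mx1, Gbp2 and Gbp3 are highest in cTEC, and Irf7, Oasl1, Gbp6 and Igtp have their highest geometric mean in mTEC.

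Guanylate-binding proteins (GBPs) are large GTPases that coat and break the vacuoles of microbes. Of the 4 measured among the members, 3 had their highest geometric mean in cTEC. A further GBP gene outside the members, Gbp8, had its lowest there (9637 in ZsG plus, 8202 in mTEC and 6882 in cTEC), with all groups overlapping. Gbp2 read 1499.6, 6204 and 229.0 in ZsG plus, 1263, 1206 and 1517 in mTEC and 13455, 10622 and 8558 in cTEC. All cTEC arrays were above all others, and the 3 mTEC arrays lay close together inside the wide ZsG plus range, whose lowest value, in replicate 3, was within that of the bacterial controls. The geometric mean in cTEC was 8.09-fold that in mTEC, a log2 difference of -3.02 ± 1.03 for mTEC minus cTEC (limma adjusted p = 0.254), and 8.31-fold that in ZsG plus, a difference of -3.06 ± 1.03 (limma adjusted p = 0.161). A second Gbp2 probe set gave -2.36 and -3.77. For the probe set used, the SD of the log2 values was 2.388 in ZsG plus, 0.175 in mTEC and 0.327 in cTEC, and both errors share all 3. The mTEC difference passed when only the 6 arrays of those groups were fitted (adjusted p = 0.0211) and with array weights (adjusted p = 0.0148), and the ZsG plus difference passed without ZsG plus replicate 2 (-4.19, adjusted p = 0.0346). Without ZsG plus replicate 3 it was -1.81 (adjusted p = 0.179).

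Gbp3 read 304.9, 959.8 and 381.7 in ZsG plus, 1032.5, 1207 and 657.8 in mTEC and 3968, 2646 and 2215 in cTEC. The cTEC arrays were again above all others, and ZsG plus and mTEC overlapped through 1 ZsG plus array. The ZsG plus minus cTEC difference was -2.57 ± 0.62, which had the smallest p of any member (limma adjusted p = 0.0764). It passed with a filter at the 40th percentile of intensity (adjusted p = 0.0376), with offsets of 50 and 200 added before log2 (adjusted p = 0.0371 and 0.0215) and without ZsG plus replicate 2 (adjusted p = 0.0303), and over all alternatives it ranged from -3.06 to -2.03. The mTEC minus cTEC difference was -1.61 ± 0.62 (limma adjusted p = 0.32).

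Gbp7 read 453.2, 653.9 and 4424.5 in ZsG plus, 1971, 819.4 and 607.7 in mTEC and 3419, 2512 and 3944 in cTEC. All mTEC arrays were below all cTEC arrays, by -1.70 ± 0.89 (limma adjusted p = 0.507), while the ZsG plus arrays lay on both sides. Both points depended on the probe set. For the dimmer Gbp7 probe set mTEC overlapped cTEC (-0.94, limma adjusted p = 0.77). Its ZsG plus values of 851.2, 1072.4 and 471.0 were below all cTEC arrays (-1.37, limma adjusted p = 0.351). Gbp6 went the other way within the same family. It read 8158, 5789.6 and 13872 in ZsG plus, 9429.5, 8830.3 and 8548 in mTEC and 6406, 5609 and 6374.5 in cTEC, with all mTEC arrays above all cTEC arrays at a difference of 0.55 ± 0.53 (limma adjusted p = 0.802). Members of this family resemble each other in sequence, and binding of a relative's transcript to a probe set was not tested.

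For the immunity-related GTPases (IRGs) the mTEC and cTEC ranges overlapped. This split of the GTPases into 2 families was made after the values were seen. The median mTEC minus cTEC difference was -1.66 over the 4 GBPs among the members, which leaves out Gbp8 (0.25), and -0.43 over the 4 IRGs among them. For 0 of 4 IRGs did the groups not overlap, beside 28.5% of all genes in either direction. A list of 4 genes is too short to set against that share. Between ZsG plus and cTEC the medians were -2.07 and -1.32, and all 4 IRGs were below 0.

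Igtp, which encodes Irgm3, a regulator of the other IRGs, read 4737, 1669 and 5766 in ZsG plus, 9787.5, 4868 and 8164 in mTEC and 8269, 6377 and 7223.5 in cTEC. All ZsG plus arrays were below all cTEC arrays, by -1.02 ± 0.63 (limma adjusted p = 0.417), and mTEC and cTEC differed by 0.01 ± 0.63. Irgm2, whose promoter holds a GAS and an ISRE match 2 bases apart, read 2355, 724.4 and 377.7 in ZsG plus, 1801, 3544 and 1167 in mTEC and 2563, 2690.4 and 2653 in cTEC. Its ZsG plus minus cTEC difference was -1.61 ± 0.76 (limma adjusted p = 0.291), without overlap on the deposited scale and with overlap after centring. Irgm1, a further regulator with a role in autophagy, read 214.6, 1261 and 320.7 in ZsG plus, 1828, 611.5 and 1353 in mTEC and 2351, 1285 and 1225 in cTEC, at a ZsG plus minus cTEC difference of -1.80 ± 0.78 (limma adjusted p = 0.257). The effector Iigp1, the brightest of the IRGs by mean log2 intensity, read 11754, 6970.0 and 4829 in ZsG plus, 7456, 7737 and 5552 in mTEC and 13850.1, 7234 and 10579 in cTEC, and all groups overlapped.

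**Figure D4:**
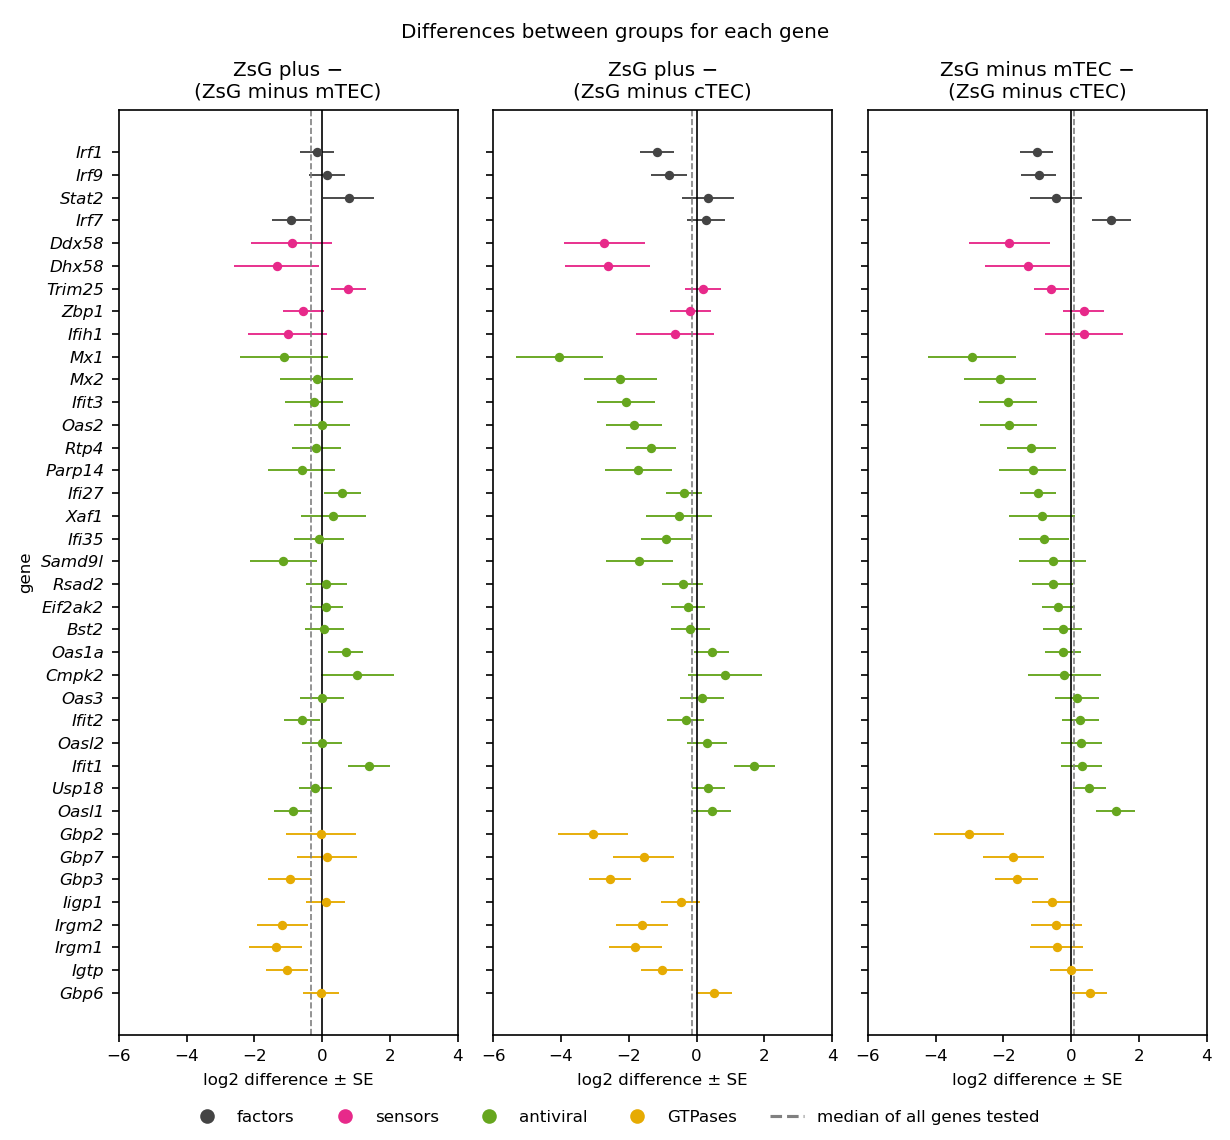
Log2 difference with its standard error (limma) for each of the 38 genes in the 3 comparisons, coloured by role, with a solid line at 0 and a dashed line at the median of all 18194 genes. In the right panel most points lie below 0 with Mx1 and Gbp2 farthest left, in the middle panel Mx1 is at -4.04 and Ifit1 at 1.71, and in the left panel the points lie on both sides of the dashed line at -0.33.

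The arrays of ZsG plus were the least alike. The median SD of the log2 values over the members was 0.91 in ZsG plus, 0.34 in mTEC and 0.33 in cTEC, and over all genes it was 1.30, 0.63 and 0.61. ZsG plus replicate 3 gave the lowest of the 9 values for 14 of 38 members (36.8%, all genes 22.9%) and the highest for 6 (15.8%, all genes 18.4%). Its lowest members included Ddx58, Ifih1, Dhx58, Mx1, Parp14, Samd9l and Gbp2, all of which read at or below the bacterial controls there, while its highest were Stat2, Ifit1, Oas1a, Xaf1, Gbp6 and Gbp7. The low median intensity and higher Gapdh ratio of the ZsG plus arrays, given earlier, moved with this spread, and their part in it was not tested.

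A separate list of 50 other interferon-stimulated genes, 43 of them measured, gave 0 calls in each comparison by limma at the adjusted threshold. At an unadjusted p under 0.05 there were 5 between ZsG plus and mTEC (all lower in ZsG plus), 1 higher and 8 lower between ZsG plus and cTEC, and 3 higher and 4 lower between mTEC and cTEC. These are 11.6%, 20.9% and 16.3% of the measured list, beside 13.4%, 18.7% and 12.3% of all genes. Groups did not overlap, with mTEC lower than cTEC, for 13 genes (30.2%), and with mTEC higher for 9 (20.9%), beside 11.8% and 16.6% of all genes. The list's median difference between mTEC and cTEC was -0.21.

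Its brightest genes were Ifitm3, a membrane protein that blocks viral entry, the chemokine gene Cxcl10 and Nampt, an enzyme of NAD synthesis. Ifitm3 read 63118, 63609 and 96972 in ZsG plus, 53565, 54704 and 47067 in mTEC and 40545, 41941 and 61937 in cTEC, with all ZsG plus arrays above all others. Cxcl10 read 27120.0, 23364 and 15798 in ZsG plus, 23706, 28534 and 27082 in mTEC and 20176, 15923 and 18412.5 in cTEC, with all mTEC arrays above all cTEC arrays at 0.54 ± 0.50 (limma adjusted p = 0.786). Nampt read 7179, 18264 and 14763 in ZsG plus, 11016, 12052 and 8822 in mTEC and 7797, 8425.5 and 5692 in cTEC.

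Cxcl9, the interferon gamma-induced chemokine that draws CXCR3-bearing T cells, was singled out after its values were seen, because it ran opposite to Gbp2 and Irf1. It read 5143, 6851 and 1242 in ZsG plus, 8979, 11417 and 13361 in mTEC and 1389, 1106 and 378.0 in cTEC. The mTEC arrays were above all others, at 13.3-fold the cTEC level or 3.73 ± 0.79 on the log2 scale (limma adjusted p = 0.081), and the same list's Cxcl11 differed by 2.42 ± 0.95 (limma adjusted p = 0.327). For the dimmer Cxcl9 probe set mTEC overlapped both other groups, with an mTEC minus cTEC difference of 2.05 (limma adjusted p = 0.533). Ube2l6 and Dtx3l, also picked after their values were seen, had low values in ZsG plus. Ube2l6, an enzyme of ISG15 conjugation, read 50.6, 360.9 and 208.7 in ZsG plus, 2730.1, 1773 and 2872 in mTEC and 811.7, 1559 and 851.9 in cTEC, a difference of -3.94 ± 0.77 against mTEC (limma adjusted p = 0.0851). Dtx3l, a ubiquitin ligase that partners Parp9, read 350.5, 718.3 and 337.8 in ZsG plus, 1988, 2824 and 1492.5 in mTEC and 2407, 2003 and 2763 in cTEC, a difference of -2.43 ± 0.56 against cTEC (limma adjusted p = 0.0661).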

How the data were processed

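The authors' deposited values were linear probe set intensities, 45101 per array. No label or header names the software. The authors had brought every array to 1 trimmed mean of 1250 (2% trimmed at each end), as found from the deposited intensity values. Per the labels' protocols, 5 ng of RNA was amplified before labelling. No array detection calls were used, and the number of arrays limits the precision.

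Probe sets with 1 symbol in the platform annotation (34958) were kept, and 932 with several and 9211 with none were left out. Log2 intensity of the brightest probe set per gene was fitted with limma 3.58.1 in R 4.3.3 (lmFit, eBayes, 1 coefficient per group, all 9 arrays, 6 residual degrees of freedom). P-values are two-sided, and errors after ± are standard errors. The code was tested on simulated data. Members and lists were chosen with earlier results of these data known. Per-array values are given for members with an unadjusted p under 0.05 and, per role, the 2 brightest and the 2 with the largest difference; others were added after their values were seen. Same-numbered arrays did not deviate together (correlations -0.015 to 0.013). Alternatives changed probe set choice, filter, offset, scaling, array weights, arrays fitted and variance model. Figures were drawn with matplotlib 3.10.9.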

Additional observations from a re-analysis of the deposited data

How the results depend on the processing

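Among the 38 members, no call was lost or reversed, since none was made in the shared fit. The count of members past the adjusted threshold became 1 between ZsG plus and cTEC with the filter, with either offset and with trend and robust eBayes, and 0 to 3 over the fits that each left out 1 array, the 3 being Gbp2, Gbp3 and Mx1 without ZsG plus replicate 2. Between mTEC and cTEC it became 1 with array weights and 2 in the fit of the 6 arrays. Centring on array medians moved the members' median difference to 0.42 between ZsG plus and mTEC and to -0.04 between ZsG plus and cTEC. Of 38 members, 12, 23 and 31 kept their sign under every alternative run for them (20 for 36 members, 19 for Mx2 and Oas2, which the filter removed) in the comparisons of ZsG plus with mTEC, ZsG plus with cTEC, and mTEC with cTEC.

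The count over all genes moved more. Between ZsG plus and mTEC the 40 calls became 24 with the median of probe sets, 101 and 107 with offsets of 50 and 200, 15 after quantile normalization, 3 after centring, 0 with array weights, 0 in the fit of the 6 arrays, 14 with trend and robust eBayes and 82 over all probe sets. Leaving out 1 array gave 0 to 230: 230, 211 and 94 without ZsG plus replicates 1, 2 and 3, and at most 7 without any other array. Between ZsG plus and cTEC the 317 calls became 504 with the filter, 660 and 907 with the offsets, 37 with array weights, 0 in the fit of the 6 arrays, 593 with trend and robust eBayes and 536 over all probe sets. Leaving out 1 array gave 0 to 735, with 0 without cTEC replicate 1 or 2 and 735 without ZsG plus replicate 2. Between mTEC and cTEC the 114 calls became 178 with the median of probe sets, 176 with the filter, 334 and 457 with the offsets, 178 after quantile normalization, 71 after centring, 1220 with array weights, 548 in the fit of the 6 arrays, 265 with trend and robust eBayes and 43 over all probe sets. Leaving out 1 array gave 0 to 304, with 0 without any 1 of the mTEC or cTEC arrays. The cause of these moves was not tested. With the replicate number as a block the counts over all genes were 0, 16 and 0 in the same order, and 0 members passed in each; the samples share only a number. Where 1 array was left out, the group of 2 was assumed to vary like the others.

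Of 17 members with several probe sets, all probe sets had the same sign for 8, 11 and 13 in the 3 comparisons. Members with values in the range of the bacterial controls have poorly measured differences.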
